A study of Mus musculus with 8 samples.

Results

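The miR-181 family was followed in mouse prefrontal cortex through 10 mature miRNA names, which were taken by name from 1915 in all: the guide arms mmu-miR-181a-5p, mmu-miR-181b-5p, mmu-miR-181c-5p and mmu-miR-181d-5p, and 6 passenger arms, each specific to a hairpin. The species prefix is left out below. All 10 names were present, and 7 of them passed a filter on low values that left 599 miRNAs for testing. The 3 that did not were miR-181a-2-3p, miR-181b-2-3p and miR-181d-3p. Small RNA was sequenced from 8 libraries of mice on a C57BL/6 background at 12 weeks of age. The 4 wild-type libraries carried replicate numbers 1, 2, 3 and 4, and the 4 Fkbp5 Knockout libraries numbers 1, 2, 4 and 5. The product of Fkbp5 works with Hsp90 on the glucocorticoid receptor and makes it less sensitive to its hormone. The labels name no allele, sex or treatment, and the assay does not read Fkbp5 messenger RNA, so the genotype labels were not checked.

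A miRNA hairpin is cut by Drosha and Dicer to a short duplex. One strand, the guide, is loaded into an Argonaute protein and pairs with target messenger RNAs mainly through its seed (bases 2 to 8), while the passenger strand is mostly degraded. The family is best known from developing T cells, where miR-181a sets the sensitivity of T cell receptor signalling, and it is also abundant in brain, where miR-181a represses the AMPA receptor subunit GluA2 in neurons.

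The 4 guide arms are shown first because they share 1 seed, printed here in capitals, and differ only behind it. The sequences are those of RefSeq on GRCm38.p6, in which all 10 names were matched.
miR-181a-5p: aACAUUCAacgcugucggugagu
miR-181b-5p: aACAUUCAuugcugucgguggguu
miR-181c-5p: aACAUUCAaccugucggugagu
miR-181d-5p: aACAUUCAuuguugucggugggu
The seed pairs with UGAAUGU in a target, and 0 other mature names of the 1679 in the RefSeq table carry it. Counted from the 5′ end, miR-181a-5p and miR-181b-5p differ by A9U, C10U and A21G over 23 bases. miR-181b-5p and miR-181d-5p differ by C12U over 23 bases, and miR-181b-5p is 1 base longer. Taking base 11 out of miR-181a-5p gives miR-181c-5p. The arms therefore fall into a pair built on miR-181a and miR-181c and a pair built on miR-181b and miR-181d. Mismatch settings of the alignment are not given in the sources used here, so the split of reads between near-identical arms is uncertain.

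The passenger arms are shown because they tell the loci apart, which the guides of miR-181a and miR-181b cannot do. Capitals again mark bases 2 to 8.
miR-181a-1-3p: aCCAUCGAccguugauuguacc
miR-181a-2-3p: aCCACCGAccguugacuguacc
miR-181c-3p: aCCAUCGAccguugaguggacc
miR-181b-1-3p: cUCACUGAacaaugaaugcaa
miR-181b-2-3p: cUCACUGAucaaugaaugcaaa
miR-181d-3p: cCCACCGGgggaugaauguca
miR-181a-1-3p and miR-181c-3p share bases 2 to 8, as do miR-181b-1-3p and miR-181b-2-3p, so the passengers hold 4 different seeds. The passengers of the miR-181a hairpins differ by U5C and U16C, and those of the miR-181b hairpins by A9U, apart from 1 base of length.

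The family comes from 3 pairs of hairpins, with positions given on GRCm38. On chromosome 1, Mir181a-1 (137966455 to 137966541, plus strand) and Mir181b-1 (137966639 to 137966718) lie 97 bases apart in an intron of the noncoding gene Gm4258, with the long noncoding RNA Gm26936 on the other strand. An exon of the long noncoding RNA A430106G13Rik holds the whole of Mir181b-1 and the last 11 bases of Mir181a-1. On chromosome 2, Mir181a-2 (38852735 to 38852810, plus strand) and Mir181b-2 (38853830 to 38853918) lie 1019 bases apart, opposite in strand to an intron of Nr6a1, an orphan nuclear receptor gene. A transcript still to be tested experimentally, Gm44144, covers Mir181b-2 on the opposite strand. On chromosome 8, Mir181c (84178873 to 84178961, minus strand) and Mir181d (84178716 to 84178787) lie 85 bases apart in an intron of Nanos3, a gene of germ cell development, and on its strand.

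**Figure D1:**
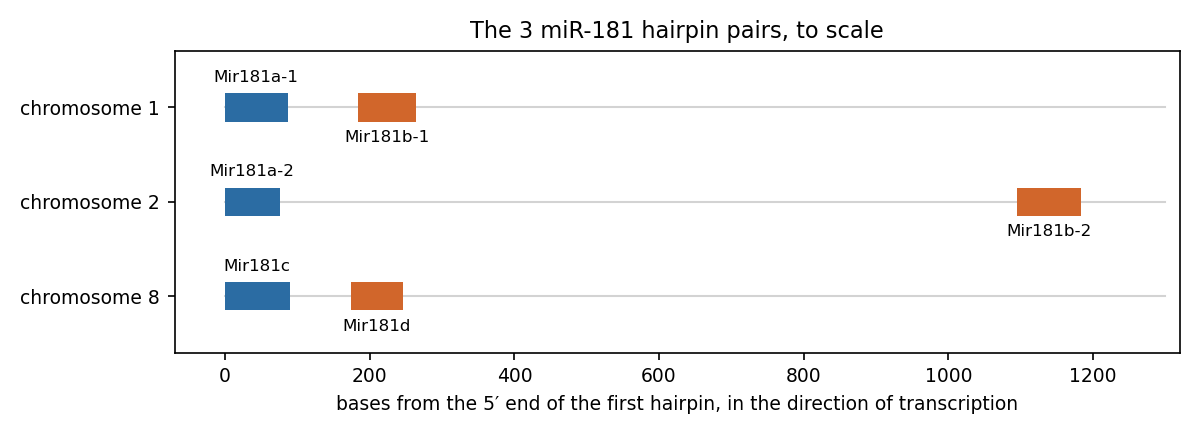
Positions of the 6 hairpins in bases from the 5′ end of the first hairpin of each pair, in the direction of transcription (bars, to scale; blue marks the first hairpin and orange the second). The gap is 97 bases on chromosome 1, 1019 on chromosome 2 and 85 on chromosome 8.

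The hairpins of miR-181a show how a guide can be shared while the passenger is not. Capitals mark the arms, the guide to the left.
Mir181a-1: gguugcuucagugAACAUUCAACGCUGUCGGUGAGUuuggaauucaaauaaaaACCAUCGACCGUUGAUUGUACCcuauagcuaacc
Mir181a-2: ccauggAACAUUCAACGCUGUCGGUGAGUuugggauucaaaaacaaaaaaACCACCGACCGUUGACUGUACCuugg
Reads of miR-181a-5p can therefore come from chromosome 1 or 2, and so can those of miR-181b-5p. How reads that match more than 1 place were counted is not given in the sources used here. The levels of these 2 guides, their shares and their ratios to other arms all rest on that rule. Elsewhere in the values, miR-199a-3p and miR-199b-3p, named for different hairpins, were equal (means of 5611 in wild-type and 4251 in knockout libraries). Shared reads were thus kept under both of those names. Equal values do not tell whether each name received them in full or in equal parts. How a single name with 2 hairpins was counted was not tested.

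The deposited values of a library summed to between 16.2 and 21.6 (units of 1000000), and values were rescaled between libraries by factors from 0.8285 to 1.22. Neuron and forebrain miRNAs were present throughout (6 of 6, with miR-128-3p at 4480897 on average), while heart miR-208a-3p was listed at 0 in every library. Liver miR-122-5p, at 394, and islet miR-375-3p, at 349.7, were low but not absent. Whether each library is its own animal is not stated in the labels, and the p-values rest on the spread between libraries, which may be technical.

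Guide levels spanned more than 100-fold. The arms are all 21 to 24 bases long, so rescaled values were compared directly. Whether the reads covered each arm whole is not given in the sources used here. How evenly each sequence is ligated and amplified was not tested.

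miR-181a-5p was the main product and ranked 20 of all 1915 names by mean value. Its rescaled values were 96851, 104656, 116045 and 104359 in wild-type replicates 1, 2, 3 and 4, and 104643, 103868, 112261 and 118824 in knockout replicates 1, 2, 4 and 5. Wild-type replicate 1 was lowest and knockout replicate 5 highest, 1.23-fold apart, and the groups overlapped. Wild-type libraries averaged 105478 ± 7916 and knockout libraries 109899 ± 7053 (SD, n = 4 each), and the log2 fold change was 0.06 ± 0.09 (SE).

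miR-181b-5p ranked 39. Its rescaled values were 40599, 41793, 46733.5 and 44779 in wild type, in the same order of replicates, and 44867, 44742, 43936 and 43909.7 in the knockout. The knockout values lay inside the wild-type range and close together. Wild-type libraries averaged 43476 ± 2794 and knockout libraries 44364 ± 512 (SD, n = 4 each), and the log2 fold change was 0.03 ± 0.09 (SE).

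The chromosome 8 guides were much lower. miR-181d-5p ranked 152, with rescaled values of 1805, 2551, 2468 and 1886 in wild type and 2649, 2225, 2077 and 2573 in the knockout. Wild-type replicates 1 and 4 were lowest, and the other 2 wild-type libraries lay among the knockout values. Wild-type libraries averaged 2178 ± 386 and knockout libraries 2381 ± 274 (SD, n = 4 each), and the log2 fold change was 0.14 ± 0.15 (SE).

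miR-181c-5p ranked 208 and varied most among the guides. Its rescaled values were 599, 1149.8, 1103 and 881 in wild type and 999, 959, 924 and 1228 in the knockout. Wild-type replicate 1 stood below all others, and the highest and lowest libraries were 2.05-fold apart, against 1.15-fold for miR-181b-5p. Wild-type libraries averaged 933 ± 252 and knockout libraries 1027 ± 137 (SD, n = 4 each), and the log2 fold change was 0.17 ± 0.20 (SE), which became -0.02 without wild-type replicate 1.

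**Figure D2:**
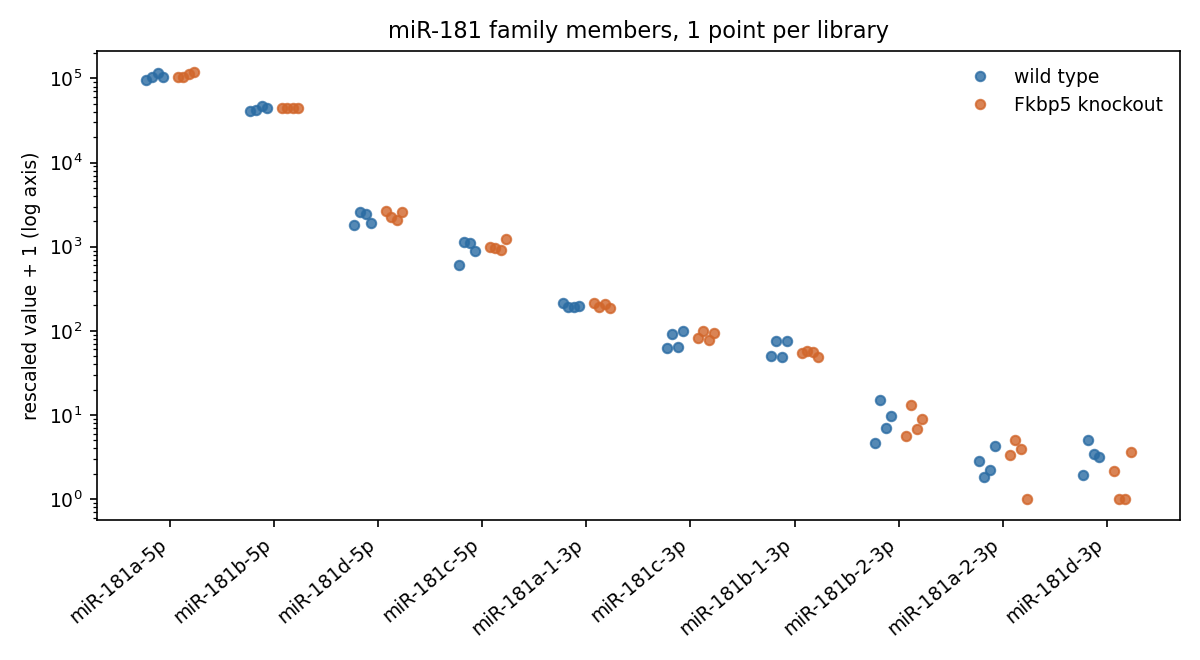
Rescaled value plus 1 on a log axis for the 10 members, ordered by mean, with 1 point per library (blue wild type, orange Fkbp5 knockout). miR-181a-5p lies near 107689 and miR-181b-5p near 43920, while the rescaled values of miR-181a-2-3p and miR-181d-3p are 4.10 or below.

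Among the 4 guides, miR-181a-5p made up 69.4 ± 0.491% of the summed level in wild-type and 69.7 ± 1.52% in knockout libraries (SD, n = 4 each). miR-181b-5p made up 28.6 ± 0.774% and 28.2 ± 1.48%. The chromosome 8 guides together held 2.04 ± 0.338% and 2.16 ± 0.219%, so the shared guides of chromosomes 1 and 2 carried nearly all of this seed in every library, as the deposited values count them. The family as a whole took 0.808 ± 0.0683% of the wild-type and 0.849 ± 0.0855% of the knockout values, from 0.708% in wild-type replicate 1 to 0.958% in knockout replicate 5.

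The passengers separated the loci. Rescaled values of miR-181a-1-3p, from chromosome 1, were 216, 189, 193 and 196 in wild type and 214, 193, 205 and 183 in the knockout. Those of miR-181a-2-3p, from chromosome 2, were 1.84, 0.820, 1.21 and 3.25 in wild type and 2.30, 4.09, 2.92 and 0 in the knockout. The chromosome 1 arm was higher in every library, 99.9-fold over the sums of the deposited values, and it held 97.9% to 100% of the miR-181a passenger values. It was also the steadiest passenger, with means of 198 ± 12.0 for wild-type and 199 ± 13.4 for knockout libraries (SD, n = 4 each).

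The same order held for miR-181b with a smaller gap. miR-181b-1-3p of chromosome 1 was deposited at 54, 90, 40 and 69 in wild type and at 47, 55, 57 and 54 in the knockout. miR-181b-2-3p of chromosome 2 was at 4, 17, 5 and 8 in wild type and at 4, 12, 6 and 9 in the knockout. The ratio of sums was 7.17, with single libraries between 4.58 (knockout replicate 2) and 13.5 (wild-type replicate 1), and chromosome 1 held 82.1% to 93.1% of these passenger values. The partners within a locus also stood in different order: miR-181a-1-3p exceeded miR-181b-1-3p 3.43-fold on chromosome 1, whereas miR-181a-2-3p was 0.246 times miR-181b-2-3p on chromosome 2. A passenger level reflects how much of the strand survives as well as how much hairpin is made, and these files hold no measure of the primary transcripts.

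On chromosome 8 the arms behaved differently from each other. miR-181c-3p was deposited at 66, 111, 53 and 90 in wild type and at 71, 97, 79 and 105 in the knockout, while miR-181d-3p reached 5 at most and was listed at 0 in knockout replicates 2 and 4. Over the sums of the 8 libraries miR-181c-5p was 11.8-fold above its passenger, from 9.03 to 17.2 in single libraries. miR-181d-5p was 1313-fold above miR-181d-3p. miR-181a-5p was 538-fold and miR-181b-5p 664-fold above the sum of their passengers. Thus miR-181c kept the largest share of passenger of the family's guides. Over the 163 hairpins whose 5p and 3p arms each averaged 20 or more, the median excess of the major arm was 13.3-fold, close to that of miR-181c. That minimum leaves out hairpins with a very low arm, such as Mir181d, so the median does not describe all hairpins. In 22 of the 163 the 5p name is shared between hairpins.

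In the order of mean levels, miR-181a-5p was followed by miR-181b-5p, miR-181d-5p, miR-181c-5p, miR-181a-1-3p, miR-181c-3p, miR-181b-1-3p, miR-181b-2-3p, miR-181a-2-3p and miR-181d-3p. The ranges of neighbours were separate down to miR-181c-3p. miR-181c-3p and miR-181b-1-3p overlapped, although the first was higher in 8 of 8 libraries. miR-181b-2-3p overlapped with miR-181a-2-3p in range and was higher in 8 of 8. miR-181a-2-3p and miR-181d-3p could not be ordered.

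Wild type and Fkbp5 knockout were then compared to ask whether the family changes when Fkbp5 is missing. By limma on log2(rescaled value + 1) with Benjamini-Hochberg adjustment, 0 of the 7 tested members passed 0.05 (0.00% of all 599 tested miRNAs did). At an unadjusted p under 0.05 the members again counted 0, against 26 of 599 (4.34%). The groups overlapped for all 7. Over all tested miRNAs the knockout lay wholly above wild type for 0.835% and wholly below it for 1.17%. Unadjusted p-values of the members ran from 0.360 to 0.985 by limma, and each adjusted p was 0.995.

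By sign, 6 members were higher and 1 lower in the knockout and the median of their log2 fold changes was 0.06, beside 322 higher and 277 lower and a median of 0.01 over all tested miRNAs. The sign of miR-181a-1-3p, at 0.00245, turned with 2 other scalings. The guides had log2 fold changes from 0.03 to 0.17. The passenger with the highest value was miR-181c-3p (rescaled value 78.3 ± 18.6 in wild-type and 87.6 ± 10.1 in knockout libraries, log2 fold change 0.18 ± 0.20). The only negative value was that of miR-181b-1-3p (61.7 ± 14.6 and 53.4 ± 3.97, log2 fold change -0.18 ± 0.20). Each of the 7 differences was smaller than its SE. Leaving out 1 library moved the value of miR-181c-3p to between 0.0730 and 0.297 and that of miR-181b-1-3p to between -0.283 and -0.0766.

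The intervals show how large a change these libraries could have missed. For miR-181a-5p the 95% interval of the ratio of knockout to wild type ran from 0.907 to 1.20, and for miR-181b-5p from 0.896 to 1.17. It ran from 0.837 to 1.52 for miR-181c-5p and from 0.882 to 1.37 for miR-181d-5p. For miR-181a-1-3p it was 0.825 to 1.22, for miR-181b-1-3p 0.652 to 1.20 and for miR-181c-3p 0.843 to 1.53. A 2-fold change in either direction lay outside the interval of every tested member. In bulk tissue, fewer cells of a type and less RNA per cell cannot be told apart.

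**Figure D3:**
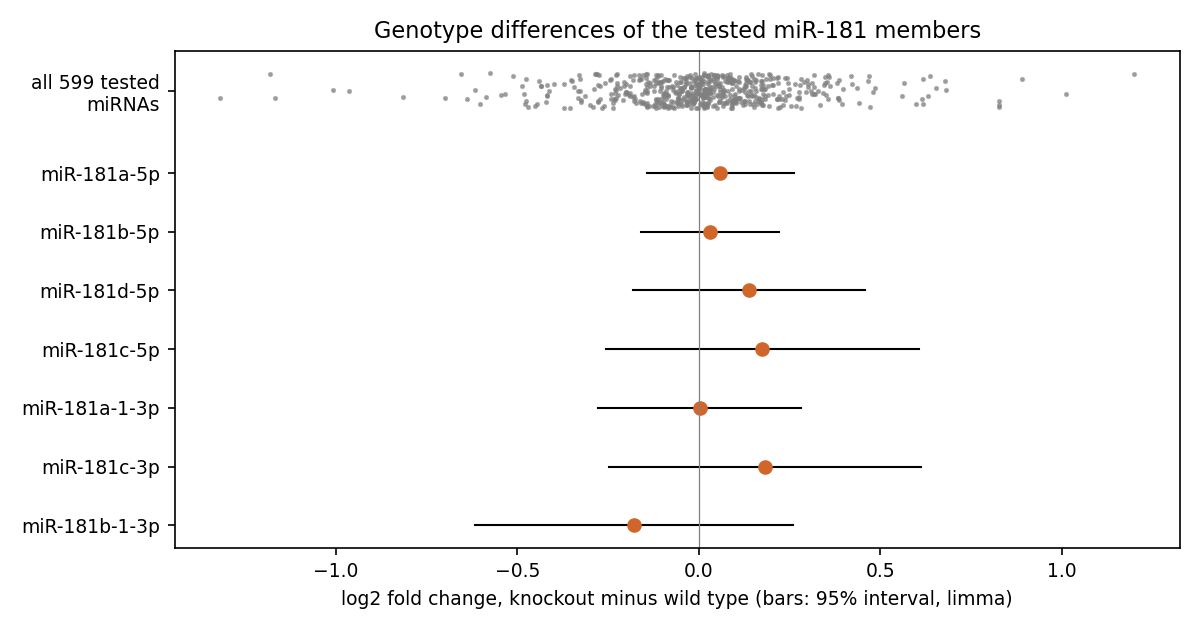
Log2 fold change of knockout minus wild type for the 7 tested members (orange points, bars the 95% interval by limma), with all 599 tested miRNAs as grey points above. Every interval crosses 0, and the members lie between -0.18 and 0.18.

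Ratios between members need no rescaling between libraries. miR-181a-5p was 2.43 ± 0.0819 times miR-181b-5p in wild-type and 2.48 ± 0.186 times in knockout libraries (SD, n = 4 each, and p = 0.629 by a two-sided exact permutation test). miR-181c-5p was 0.424 ± 0.0622 and 0.432 ± 0.0418 times miR-181d-5p (exact permutation p = 0.800). miR-181a-1-3p was 3.38 ± 0.921 and 3.73 ± 0.227 times miR-181b-1-3p (exact permutation p = 0.429), with wild-type replicates 2 and 4 low. miR-181a-5p was 119 ± 30.6 and 108 ± 10.3 times miR-181c-5p (exact permutation p = 0.657). Adjusted over these 4 ratios each exact permutation p was 0.800, and the smallest p that 70 arrangements allow is 0.0286. The other 4 ratios planned involve an arm that did not pass the filter and were not tested.

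**Figure D4:**
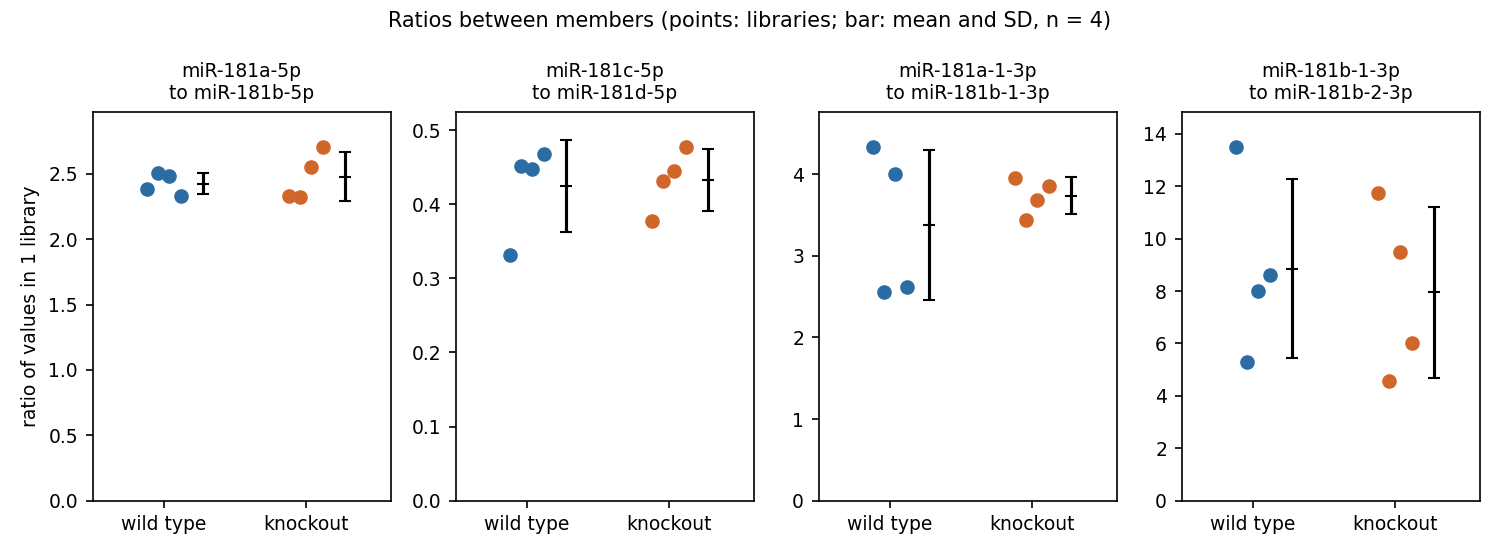
Ratio of the values of member pairs in each library (points, blue wild type and orange knockout), with the mean and SD (black bars, n = 4). miR-181c-5p to miR-181d-5p is lowest in wild-type replicate 1, at 0.332, while the other libraries lie between 0.377 and 0.477.

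The balance of guide and passenger was compared in a limma fit over all 163 hairpins, of which 0 passed (0.00%) and 3 (1.84%) had an unadjusted p under 0.05. The log2 ratio of miR-181c-5p to miR-181c-3p changed by -0.00893 ± 0.22 (SE; 95% interval -0.48 to 0.46). The shared guide set against the chromosome 1 passenger changed by 0.06 ± 0.18 for miR-181a-1 and by 0.21 ± 0.21 for miR-181b-1. Each adjusted p was 0.979 by limma. Mir181d could not be compared because its passenger is too low.

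Ratios between members of the same origin were steadier across libraries in some pairs than in others. The SD over the 8 libraries of the log2 ratio between miR-181a-5p and miR-181b-5p was 0.0787, which makes them nearly constant relative to each other. It was 0.178 between miR-181c-5p and miR-181d-5p of chromosome 8, and 0.255 and 0.292 between miR-181c-5p and the guides miR-181a-5p and miR-181b-5p. For miR-181d-5p, however, it was 0.182 and 0.201 against those guides, close to the value with its partner on chromosome 8. Between the chromosome 1 passengers it was 0.281, and between miR-181c-5p and its own passenger 0.301. The values are a description, since the points share their libraries and noise of low arms was not separated.

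**Figure D5:**
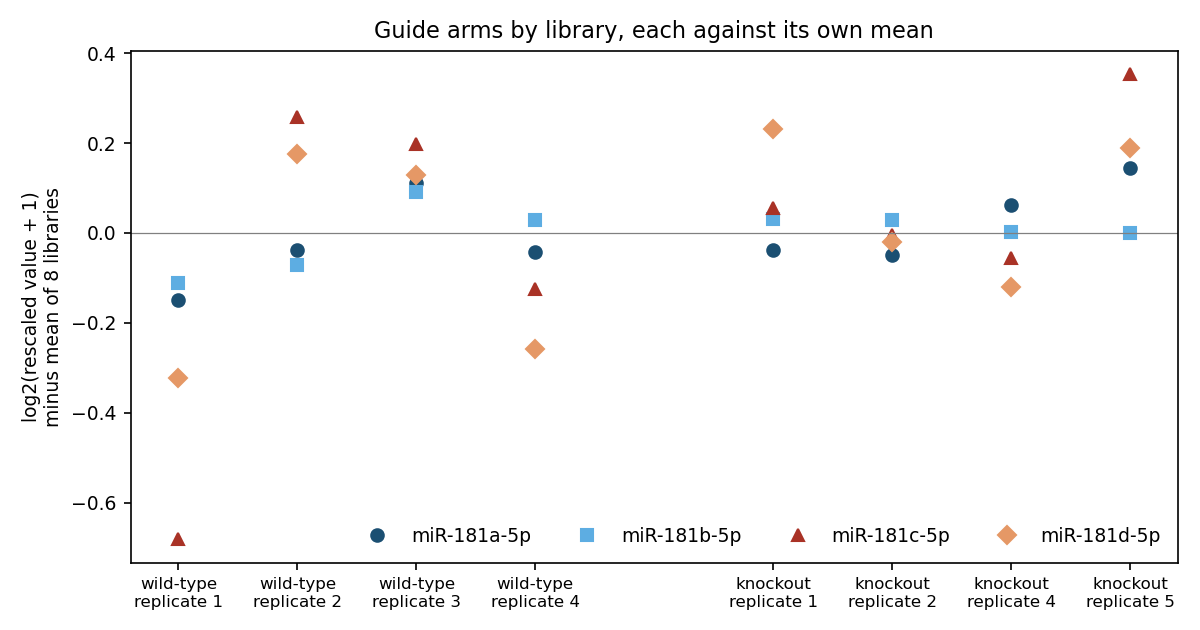
Log2(rescaled value + 1) of the 4 guides in each library, minus each guide's mean over the 8 libraries. miR-181c-5p (triangles) and miR-181d-5p (diamonds) are lowest in wild-type replicate 1, and miR-181b-5p (squares) stays close to 0 in the knockout libraries.

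Outside the family, the ratio to miR-181a-5p was steadiest over the 8 libraries for 5 tested miRNAs. These were miR-29c-5p, with an SD of the log2 ratio of 0.0604, miR-23a-3p (0.0763), miR-501-3p (0.0810), miR-26b-5p (0.0985) and miR-26a-5p (0.101). The median over all tested miRNAs outside the family was 0.275. miR-181b-5p, at 0.0787, would take place 3 among them, miR-181a-1-3p (0.163) place 68, miR-181d-5p (0.182) place 101 and miR-181c-5p (0.255) place 246. Thus the ratio to miR-181a-5p was steadier for the guide shared by the same loci than for the chromosome 8 guides. A small SD also arises where both miRNAs vary little, so it does not show that they rise and fall together. The SD of the log2 values was 0.0638 for miR-181b-5p and 0.320 for miR-181c-5p. In knockout replicate 5 miR-181a-5p was highest of the 8 libraries and miR-181b-5p lowest of the knockout libraries. There miR-181a-1-3p was lowest of the 8 libraries, at 183.

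Markers of other cells were set beside these patterns. The 5 olfactory bulb and epithelium miRNAs (5 of 5 present, none at 0) had summed rescaled values of 5623 in wild-type replicate 2, 4781 in wild-type replicate 3 and 5508 in knockout replicate 5, and between 909 and 2694 in the other libraries. These 3 libraries also held the highest values of miR-181c-5p, at 1149.8, 1103 and 1228. The order did not hold below them. Wild-type replicate 1 had the next olfactory sum, 2694, but the lowest miR-181c-5p, at 599. Knockout replicate 1 had the lowest sum, 909, with miR-181c-5p at 999. For miR-181d-5p the 3 libraries with the highest olfactory sums ranked just below knockout replicate 1, at 2551, 2468 and 2573 against 2649 there. By genotype, the olfactory sums of knockout replicates 1, 2 and 4 (909, 1200 and 1402) lay below every wild-type library, the lowest at 1590. Knockout replicate 5 did not. The log2 fold changes were -0.96 for miR-200a-3p, -1.18 for miR-200b-3p and -1.32 for miR-429-3p. For miR-183-5p and miR-182-5p they were -0.81 and -0.64 (each adjusted p of the 5 was 0.995 by limma). The 6 leukocyte and microglia miRNAs, of interest because miR-181a is abundant in lymphocytes, were all present and summed to 12240.4 to 13432 in wild type and 11690.0 to 15102 in the knockout. Most of this sum was miR-150-5p, and the members went both ways. Log2 fold changes were 0.17 for miR-150-5p, 0.14 for miR-155-5p and 0.01 for miR-142a-3p. They were -0.37 for miR-142a-5p, -0.34 for miR-223-3p and -0.44 for miR-146a-5p (each adjusted p 0.995 by limma). The 4 endothelium and smooth muscle miRNAs, also all present, summed to 74766 to 100314 in wild type and to 66238, 85101, 55245 and 63238 in knockout replicates 1, 2, 4 and 5, of which 3 lay below every wild-type library. Most of this sum was miR-143-3p, with means of 61183 and 46417 (log2 fold change -0.42, adjusted p 0.897 by limma). The log2 fold changes of miR-126a-3p, miR-126a-5p and miR-145a-5p were smaller, at -0.07, -0.12 and -0.08. The 2 oligodendrocyte miRNAs summed to 716 to 922 in wild type and 659 to 821 in the knockout, and the 3 red blood cell miRNAs to 3023 to 5242 and 3796 to 4888. The oligodendrocyte sum was mostly miR-338-3p, while miR-219a-5p averaged 41.7 and 27.1 (log2 fold change -0.60, adjusted p 0.870 by limma). Their list did not include the more abundant miR-219a-2-3p (14269 and 12735, log2 fold change -0.15) and miR-338-5p (10224 and 9581, -0.09). The part of these cells in the miR-181 values was not tested.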

How the data were processed

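Small RNA was sequenced in 4 wild-type and 4 Fkbp5 knockout libraries. The submitters' processing notes name build mm10 and, with no settings, HTSeq 0.6.1p1, Bowtie 1.1.2, edgeR and cutadapt 1.11. The deposited score values, 1 per mature name, are what the authors call normalized counts, per the file headers, and how they were normalized is not stated. All are whole numbers, each whole number from 1 to 20 occurs in every library and totals differ, so they look like raw counts. The header was followed, they were not treated as raw counts, and depth in reads is unknown.

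Values were rescaled between libraries by an unweighted trimmed mean of log ratios (30% of ratios and 5% of levels trimmed at each end). A miRNA was tested if it reached 10, scaled to the median library total, in at least 4 libraries. limma 3.58.1 in R 4.3.3 was run on log2(rescaled value + 1), which understates changes of low miRNAs, with a mean-variance trend. Arm ratios had 0.5 added to each arm and ratios between members 0.5 to each value. The procedure was tested on simulated data. When 200 miRNAs out of the 599 were altered, 64.2% of 1.5-fold and 86.6% of 2-fold changes were found by limma, and 3.31% of its calls were false. Of 2-fold changes in arm ratios over 163 hairpins, 40 of them altered, 80% were found. The simulated noise was independent between miRNAs and the rescaling step was left out. With fewer altered miRNAs the adjustment is stricter, so these shares do not apply to a change in a few members, which was not simulated.

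The named miRNAs were the 10 members and the 5 nearest to miR-181a-5p by the SD of the log2 ratio. Members, markers, ratios and tests were chosen with earlier results of these data known. Alternatives covered scaling, pseudocount, filter, trend, a replicate block and the omission of each library. GENCODE M21 and RefSeq gave positions and sequences on GRCm38, which mm10 names.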

Additional observations from a re-analysis of the deposited data

Results flagged for a closer look

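The ratio of miR-181c-5p to miR-181d-5p in wild-type replicate 1 lay far from the other wild-type libraries. On the log2 scale it was -1.59, and the other 3 lay between -1.16 and -1.10. This was 1 of 36 groups of 4 libraries examined, where chance gives about 1.8. The same library held the lowest values of miR-181a-5p, miR-181b-5p, miR-181c-5p and miR-181d-5p.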

How the results depend on the processing

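Of 124 alternative values for the tested members 0 passed the threshold (lowest adjusted p 0.886 by limma) and 9 changed sign, all of them for miR-181a-1-3p, miR-181b-5p and miR-181c-5p. miR-181a-1-3p was at -0.00109 with median-of-ratios scaling and -0.00544 in the values as deposited, and from -0.0336 to 0.0433 when each library was omitted in turn. Under the same omissions miR-181b-5p ran from -0.000879 to 0.0668 and miR-181c-5p from -0.0234 to 0.290, and for each the negative value arose without wild-type replicate 1. The members that kept their sign moved as well: miR-181a-5p from 0.0200 to 0.107 and miR-181d-5p from 0.0544 to 0.221 (each lowest without wild-type replicate 1), miR-181c-3p from 0.0730 without wild-type replicate 1 to 0.297 without wild-type replicate 4, and miR-181b-1-3p from -0.283 without wild-type replicate 3 to -0.0766 without wild-type replicate 4. The median log2 fold change over all miRNAs shifted by up to 0.0544 under another scaling. The arm ratio change of miR-181c was 0.000858 with 5 added and ran from -0.136 to 0.173 over the omissions, that of miR-181a-1 from -0.0234 to 0.117 and that of miR-181b-1 from 0.0963 to 0.352. Over the omissions, the log2 difference of the ratio of miR-181a-5p to miR-181b-5p ran from -0.0145 to 0.0592, of miR-181a-5p to miR-181c-5p from -0.233 to 0.0434, of miR-181c-5p to miR-181d-5p from -0.0778 to 0.100, and of miR-181a-1-3p to miR-181b-1-3p from 0.0626 without wild-type replicate 2 to 0.315 without wild-type replicate 1 (0.182 with all libraries).

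Whether replicate numbers mark pairs is not stated in the labels. The deviations of same-numbered libraries correlated at 0.0650, -0.0385 and 0.133, and none matched best with its own number. With a replicate block on the shared numbers (1, 2 and 4), 7 miRNAs passed the threshold, none a member, along with 2 arm ratios, and 46 miRNAs were under 0.05 unadjusted. Unblocked, those 6 libraries gave 0, 0 and 41. The arm ratio change of miR-181c was 0.113 and the difference of miR-181a-5p to miR-181b-5p was -0.00305, with and without the block. The 26 miRNAs under 0.05 unadjusted numbered 51 with no filter and 15 at a filter of 100, where the number tested differs. They numbered 9 as deposited (cause not tested) and 18 to 40 over the omissions, with 40 when wild-type replicate 3 was omitted.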
